A study of Sus scrofa with 8 samples.

Results

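The nuclei described here are the cone photoreceptor nuclei of the pig retina in which no S opsin RNA was counted. They were selected on measured counts, by a rule applied to every barcode of the 8 retinas: at least 1000 unique molecular identifiers (UMIs, each counting 1 captured RNA molecule), at least 4 UMIs summed over the cone genes ARR3, PDE6C, CNGB3, CNGA3, GNAT2 and GRK7, this sum larger than 2 times the sum of the rod genes PDE6A, PDE6B, NR2E3 and CNGA1, no UMI of the S opsin gene OPN1SW, and at most 1 UMI over TRPM1, GRM6, GAD1, GAD2 and PTPRC, which mark bipolar, amacrine and immune cells. The rule kept 23687 of 388491 barcodes. They are called cone nuclei below, and the nuclei of the same rule with at least 2 OPN1SW UMIs, 680 in all, are called S opsin cone nuclei. Rod nuclei, 130199 in all, were taken by the mirrored rule, also without an OPN1SW UMI, and serve for comparison.

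Cones are the photoreceptors of daylight and color vision. In most mammals they come in a kind that carries the short-wavelength (S) opsin and a more abundant kind that carries the medium- to long-wavelength (M/L) opsin, and the thyroid hormone receptor THRB is known to promote the M/L kind and repress S opsin. Light closes the cyclic nucleotide-gated channel CNGA3/CNGB3 through the cone transducin GNAT2 and the phosphodiesterase PDE6C, and the cone arrestin ARR3 and the kinase GRK7 shut the opsin off again. Like other cells, cones carry sensors of foreign nucleic acid, and a cell that senses type I interferon turns on a large group of interferon-stimulated genes (ISGs) through STAT and IRF transcription factors.

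The animals were female Yucatan minipigs of 3 to 5 months, injected in both vitreous cavities with AAV2.7m8/CAG-GFP at 5e11 vector genomes (vg) per eye or with vehicle. AAV2.7m8 is an adeno-associated virus capsid made to cross into the retina from the vitreous, and the CAG promoter is active in most cell types. All animals, vehicle controls included, had Vitrase, a hyaluronidase, injected in both vitreous cavities 2 weeks earlier, systemic methylprednisolone from 2 days before and weekly, and aqueous humor sampling. Nuclei were sorted on DAPI from frozen retinas and counted from the 3' end of the RNA, in 4 lanes per retina. At week 2 each group was both eyes of 1 animal, so no spread between animals was measured and no week 2 difference was tested by itself. At week 4 each group was the left eyes of 2 animals. Every one of the 4 groups also has a batch label that no other group shares and that only repeats the name of the group. The labels do not name the step it refers to, so an effect of batch cannot be told apart from one of AAV. Levels are CPM, the UMIs of a gene scaled to the total UMIs of the cone nuclei of that retina, and the values of a group are given as replicate 1 and replicate 2.

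Each retina gave between 1879 and 3866 cone nuclei, with 6995860 to 10578761 UMIs in their sum and a median of 2042.5 to 3532.5 UMIs and 1228 to 1791 genes per nucleus. The mitochondrial share of their UMIs was 0.0932% and 0.0724% in the AAV week 4 retinas and 0.140% to 0.244% in the other 6. The 32 libraries shared at most 2 barcodes among the cone nuclei of any pair, against up to 65 among all barcodes. Near the threshold, 3 to 40 nuclei of a retina had a cone sum of exactly 4, and 13 to 65 nuclei had a sum of 3 and were left out, while the mean sum of the members lay between 22.4 and 39.6.

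The label fits the marker genes that chose the nuclei. ARR3 was counted in 95.8% to 98.9% of the cone nuclei of a retina, CNGB3 in 95.3% to 98.8%, GNAT2 in 84.7% to 95.3%, PDE6C in 87.5% to 95% and CNGA3 in 57.9% to 69.6%. These shares describe the selection. The M/L opsin carries no symbol in the files and is not analysed here.

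The absence of an OPN1SW UMI did not make the group uniform. S opsin RNA was sparse in these nuclei: the median of the S opsin cone nuclei was 2 UMIs, the lowest number that the class allows, and another 1325 cone nuclei had 1 OPN1SW UMI and belong to neither class. When rods were taken by the mirrored rule without its limit on OPN1SW, an OPN1SW UMI was found in 0.0578% to 0.133% of them in a retina, at median depths of 1586 to 2242 UMIs, and a single UMI was found in 4.21% to 6.47% of the nuclei that passed the cone rule, at median depths of 2074 to 3687. CCDC136, a coiled-coil gene on chromosome 18 (19793764 to 19824855, minus strand, Sscrofa11.1), lies 11597 bases from OPN1SW (19836453 to 19839425, plus strand). Its level was 408 to 747 CPM in the cone nuclei of an animal and 4859 to 5884 CPM in the S opsin cone nuclei, a log2 difference of -3.20 ± 0.06 (SE, edgeR quasi-likelihood test, adjusted p = 1.05e-45).

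Within the cone nuclei, 2737 of 23687 (11.6%) held more UMIs of CCDC136 than of THRB, ITPRID1, FLRT2 and SYN2 together. The same held for 1268 of the 1325 nuclei with 1 OPN1SW UMI (95.7%) and for 676 of the 680 S opsin cone nuclei (99.4%). This split was chosen after the values were seen, and what follows is a description without a test. The nuclei that met it are called nuclei of the CCDC136 profile.

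The nuclei of the CCDC136 profile stood closer to the S opsin cone nuclei than to the other cone nuclei in the genes named next, which the split did not use. TEAD4, a transcription factor of the Hippo pathway, stood at 237 CPM in the cone nuclei with the profile, 2.16 CPM in those without it and 277 CPM in the S opsin cone nuclei. The xylosyltransferase gene GXYLT2 stood at 176, 8.45 and 192 CPM in the same order. TBX2, a transcription factor that in fish and mice keeps S and UV cones from other fates, stood at 30, 3.36 and 34.2 CPM. SAMD7, a Polycomb-linked repressor of photoreceptors, went the other way with 199, 1067 and 110 CPM, and its 170 to 235 CPM per retina in the nuclei with the profile did not overlap the 79.8 to 150 CPM of the S opsin cone nuclei. ARR3, one of the genes whose sum selected all of these nuclei, stood at 2107, 3914 and 2132 CPM, which is given as a description of the selected nuclei alone. The profile was found in 13.2% and 16.2% of the cone nuclei of the vehicle week 4 retinas and in 9.21% to 11.3% in the other 6. The vehicle week 4 cone nuclei also had the lowest median depths, 2406.5 and 2042.5 UMIs. Over all nuclei that passed the cone rule, with or without an OPN1SW UMI, the shares were 19.1% and 21.6% against 15.1% to 19.7%, and they overlapped.

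**Figure D1:**
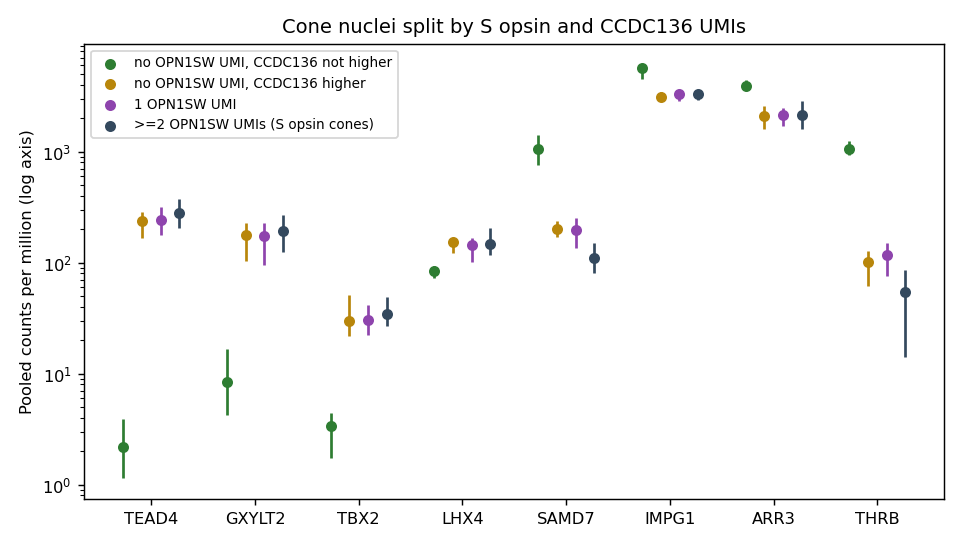
Level of 8 genes (CPM, log axis) in the pooled cone nuclei without and with the CCDC136 profile, in nuclei with 1 OPN1SW UMI and in S opsin cone nuclei; points are pooled values and lines run from the lowest to the highest retina. TEAD4 is at 2.16 CPM in cone nuclei without the profile and at 237 to 277 CPM in the other 3 classes, and THRB is at 1064 CPM against 53.8 to 116 CPM; THRB was part of the split by profile and ARR3 of the rule that selected all 4 classes.

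The cone nuclei as a whole were compared with the S opsin cone nuclei of the same animals, with animal as a block. Of 15113 genes tested, 1271 (8.41%) were higher in the cone nuclei and 641 (4.24%) were higher in the S opsin cone nuclei. OPN1SW chose the classes and was left out, and the cone genes of the rule were shared by both. The S opsin cone nuclei were deeper, with a median of 3436 to 5461 UMIs in a retina against 2042.5 to 3532.5 in the cone nuclei.

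THRB, the thyroid hormone receptor of M/L cones, stood at 838 to 1121 CPM in the cone nuclei of an animal and at 14.1 to 85.4 CPM in the S opsin cone nuclei, a log2 difference of 4.18 ± 0.12 (edgeR adjusted p = 1.01e-36). No animal overlapped. Among genes with a symbol and a mean of at least 10 CPM in the higher class, the largest differences in favor of the cone nuclei were in ELAPOR1, PPARG, ITPRID1, AOX1, FLRT2 and PLEKHA2. ELAPOR1 was at 9.04 to 19.6 CPM and had no count in the S opsin cone nuclei, at least 15.6-fold higher against a floor of 3 counts over all animals. PPARG, a nuclear receptor of lipid metabolism, had 2063 counts against 1, a ratio of 93.3 (95% counting interval 16.7 to 3688). ITPRID1 was at 284 to 589 CPM against 0 to 16.6 CPM, a log2 difference of 6.44 ± 0.16 (edgeR adjusted p = 1.38e-39). FLRT2, an adhesion and axon guidance protein, was at 242 to 346 CPM against 3.13 to 18.2 CPM. SAMD7 was higher by 3.19 ± 0.10 and SYN2, which encodes the synaptic vesicle protein synapsin 2, by 3.55 ± 0.18 on the log2 scale.

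Within the same limits, the largest differences in favor of the S opsin cone nuclei were in the adhesion receptor ADGRD1 with -3.40 ± 0.32 on the log2 scale, CCDC136 with -3.20 ± 0.06, TEAD4 with -3.19 ± 0.11, SLCO4C1 with -2.76 ± 0.21, GXYLT2 with -2.72 ± 0.12 and the lactate transporter SLC16A8 with -2.63 ± 0.42. SLC16A8 did not pass with nuclei thinned to 1000 UMIs (edgeR adjusted p = 0.0517). ADGRD1 rested on 67 counts in the S opsin cone nuclei and was at 0 CPM there in vehicle week 4 replicate 1. SLCO4C1 was at 1.29 to 14.9 CPM in the cone nuclei and 6.26 to 112 CPM in the S opsin cone nuclei, so both genes overlapped over the animals. TBX2 was lower in the cone nuclei by 2.42 ± 0.22. Among the photoreceptor genes, IMPG1, a proteoglycan of the matrix between photoreceptors, was higher in the cone nuclei (0.75 ± 0.04), as was the calcium channel subunit CACNA2D4 (0.89 ± 0.06), while SAG, the rod arrestin gene, was lower (-0.70 ± 0.04) and the transcription factor LHX4 was lower (-0.62 ± 0.09). Of 15 rod phototransduction genes, 13 were higher in the cone nuclei and 1 was lower, with a median log2 difference of 0.96 against 0.08 over all genes. PDE6A, PDE6B, NR2E3 and CNGA1 belonged to the rule of both classes, and without them 9 of 11 were higher and 1 was lower, with a median of 0.85. Several marker lists of other cells leaned the same way, with medians of 1.31 for bipolar, 0.88 for amacrine and 0.56 for Müller glia markers. The median was 1.24 for astrocyte, endothelial and pigment epithelium markers and -0.04 for 2 horizontal cell markers. The rod values are thus not read as a trait of these cones, and the part of RNA from other cells was not tested.

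Without the nuclei of the CCDC136 profile, an alternative added after the data were seen, TEAD4 differed by -6.99 and TBX2 by -3.40 on the log2 scale, and 2056 genes differed. With both classes thinned to 1000 UMIs per nucleus, 752 genes differed, and in the vehicle-injected animals alone 1094.

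The first question of the comparison between AAV and vehicle is how many cone nuclei were recovered. Cone nuclei were 7.79% and 6.68% of the barcodes with at least 1000 UMIs in the AAV week 2 retinas and 6.23% and 6.76% in the vehicle week 2 retinas. At week 4 they were 5.33% and 3.87% in the AAV-injected and 6.94% and 9.17% in the vehicle-injected retinas. The mean was 4.6% ± 1.04 against 8.05% ± 1.57 (SD, n = 2 each), a difference of -3.45 percentage points with no overlap. A two-sided exact permutation test gave p = 0.333, the smallest value that 2 against 2 retinas allow. A share falls when other nuclei are added, and it does not count cones per retina.

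**Figure D2:**
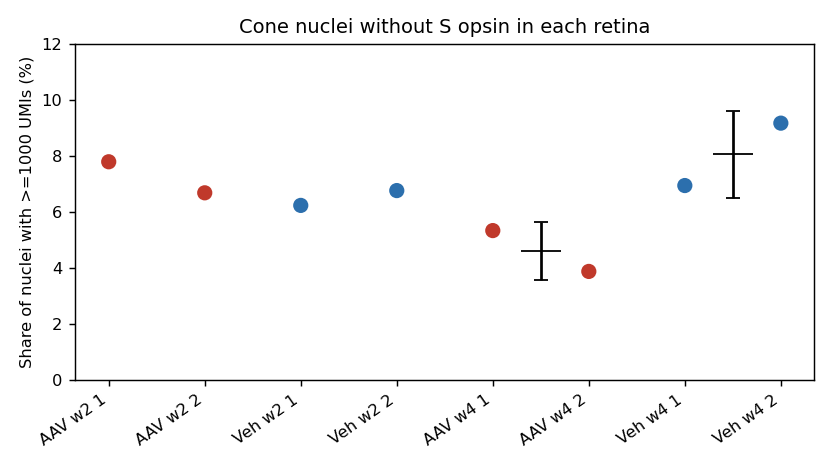
Share of cone nuclei without S opsin among barcodes with at least 1000 UMIs (percent), 1 point per retina, AAV-injected in red and vehicle-injected in blue; black marks give mean and SD of the 2 week 4 retinas per group. The week 4 AAV points lie at 5.33% and 3.87%, below the vehicle points at 6.94% and 9.17%.

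RNA of other cell types was present in the cone sums, and the sums of some marker lists moved with the groups. The summed level of 11 Müller glia markers was 130 and 62.3 CPM in the AAV week 4 retinas and 247 to 347 CPM in the other 6. The sum of 12 microglia and macrophage markers was 60.1 and 37.6 CPM in the AAV week 4 retinas and 7.28 to 10 CPM in the other 6. The sum of 16 lymphocyte markers was 70.3 and 73.5 CPM against 23.2 to 31.4 CPM. The sum of 4 horizontal cell markers was 11.5 and 9.72 CPM against 20.8 to 32.1 CPM, and that of 10 amacrine cell markers 157 and 112 CPM against 177 to 258 CPM. Other sums overlapped. Bipolar cell markers summed to 401 and 358 CPM against 323 to 484 CPM, and ganglion cell markers to 35.1 and 24.3 CPM against 30.1 to 57.7 CPM. Markers of astrocytes, endothelium and pigment epithelium summed to 135 and 100 CPM against 114 to 157 CPM. Rod phototransduction genes summed to 5928 and 5799 CPM against 7056 to 8788 CPM, but SAG carried this difference, with 3686 and 3312 CPM against 4582 to 6126 CPM. SAG was also high in the S opsin cone nuclei, at 8036 CPM. Without SAG the rod genes summed to 2242 and 2487 CPM against 1777 to 2661 CPM, and the groups overlapped. The rod nuclei showed the same order for the Müller list, with Müller sums of 198 and 94.2 CPM in AAV week 4 against 418 to 665 CPM. No list had all its markers at 0. The rule bounds TRPM1, GRM6, GAD1, GAD2 and PTPRC from above in every nucleus, so the sums of bipolar, amacrine and immune markers are a description. The part of these sums in the results below was not tested.

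At week 4, 182 of 15774 genes (1.15%) were higher and 121 (0.767%) were lower in the cone nuclei of AAV-injected than of vehicle-injected retinas (edgeR quasi-likelihood test on sums per retina, Benjamini-Hochberg adjusted p under 0.05), with 2663 at an unadjusted p under 0.05. Of these, 54 of the higher and 18 of the lower genes passed in all 14 other settings. The count of higher genes was 74 without replicate 1 and 85 without replicate 2 of the vehicle retinas, and 270 and 253 without replicate 1 and replicate 2 of the AAV-injected retinas. The count of lower genes was 73 and 43 without vehicle replicate 1 and 2 and 542 and 194 without AAV replicate 1 and 2.

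Of the phototransduction genes of the cone 1 passed the test. Of 23 tested genes of the cone cascade, none was higher and 1 was lower at week 4, with a median log2 fold change of 0.03 against 0.01 over all genes. Without the 6 genes that the rule used, the list held 17 tested genes, 1 of them lower, and the median was again 0.03. ARR3, the cone arrestin, stood at 3480 and 3727 CPM in the AAV week 4 retinas and at 4168 and 3621 CPM in the vehicle retinas, and at week 2 at 3754 and 3673 CPM against 3594 and 3598 CPM. The groups overlapped at week 4, with a log2 fold change of -0.04 ± 0.16. PDE6C, the catalytic phosphodiesterase, stood at 1229 and 1364 CPM against 1374 and 1287 CPM (0.03 ± 0.14). CNGB3, the channel subunit, stood at 2637 and 3169 CPM against 2539 and 2277 CPM (0.34 ± 0.17), and its partner CNGA3 changed by 0.09 ± 0.11. GNAT2, the cone transducin, and PDE6H, the inhibitory subunit, had log2 fold changes of 0.27 ± 0.22 and 0.19 ± 0.22. The genes that shut off the response and restore calcium were within the same range, with -0.19 ± 0.12 for GRK7, 0.17 ± 0.12 for the transducin regulator RGS9, 0.04 ± 0.13 for the guanylate cyclase GUCY2D, -0.13 ± 0.11 for its activator GUCA1A and 0.25 ± 0.16 for the sodium, calcium and potassium exchanger SLC24A2. ARR3, PDE6C, CNGB3, CNGA3, GNAT2 and GRK7 were part of the rule, which bounds their sum from below in every nucleus, so their values are a description.

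GNB3, the beta subunit of cone transducin, was the 1 gene of the cascade that passed. It stood at 282 and 261 CPM in the AAV week 4 retinas and at 433 and 423 CPM in the vehicle retinas, but at 388 and 420 CPM against 308 and 365 CPM at week 2. It fell by 0.59 ± 0.11 on the log2 scale at week 4 (edgeR adjusted p = 0.0447), while at week 2 both AAV-injected eyes lay above both vehicle eyes. Leaving out any 1 of the 4 week 4 retinas ended the call of GNB3, with an edgeR adjusted p of 0.067 to 0.182.

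Photoreceptor transcription factors held 3 higher and no lower genes among 19 tested, with a median of 0.28. RAX2, a homeobox factor of photoreceptors (chromosome 2, 74921553 to 74924834 in Sscrofa11.1), stood at 469 and 423 CPM in the AAV week 4 retinas and at 205 and 185 CPM in the vehicle retinas, against 258 and 246 CPM and 295 and 275 CPM at week 2. It rose 1.26 ± 0.12 on the log2 scale at week 4 (edgeR adjusted p = 0.00304), in each of the 14 other settings, and the week 2 AAV eyes lay below the vehicle eyes. RXRG, the retinoid receptor that pairs with THRB in cones, stood at 195 and 165 CPM against 97.3 and 117 CPM at week 4 and at 115 and 114 CPM against 119 and 130 CPM at week 2. It rose 0.81 ± 0.13 (edgeR adjusted p = 0.0248), and the call was lost without vehicle replicate 1 (edgeR adjusted p = 0.131) or replicate 2 (0.0643). OTX2, which drives photoreceptor fate, stood at 94.2 and 84.5 CPM against 57.2 and 63.9 CPM (0.63 ± 0.12, edgeR adjusted p = 0.0473). Its call was lost without any 1 of the 4 retinas and under another scaling (RLE factors, edgeR adjusted p = 0.0504). The same held under a stricter rule against doublets and free RNA (edgeR adjusted p = 0.211), after thinning to 1000 UMIs (edgeR adjusted p = 0.134) and in other settings. THRB stood at 846 and 965 CPM against 945 and 911 CPM (0.04 ± 0.14), and CRX, the shared regulator of rods and cones, at 186 and 198 CPM against 172 and 179 CPM (0.20 ± 0.12). RAX2 also rose in the rod nuclei, by 1.25.

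**Figure D3:**
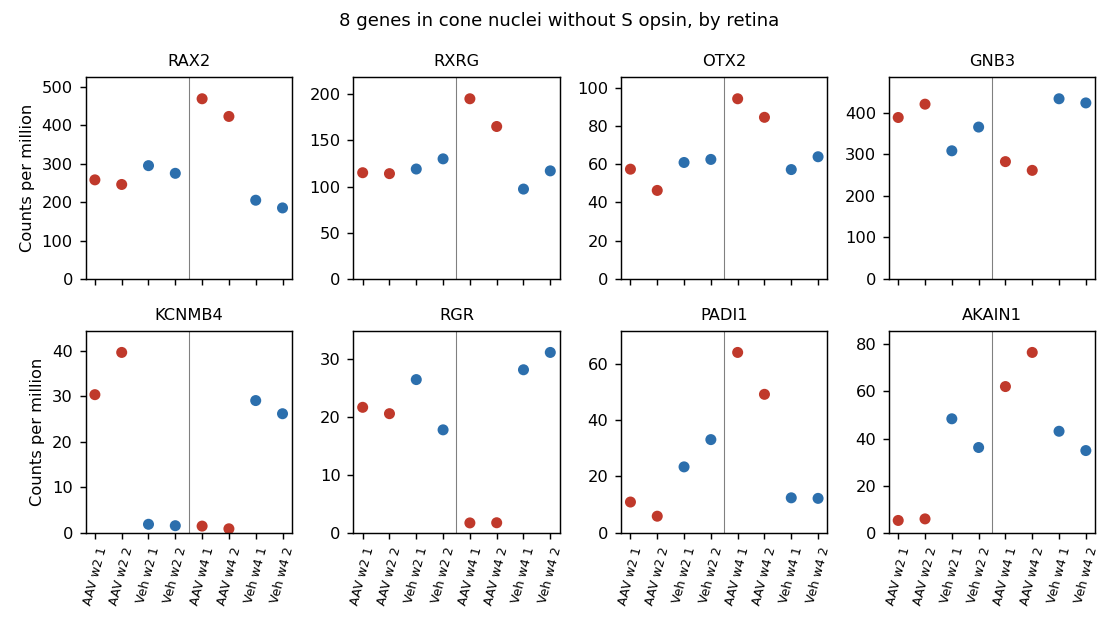
Level (CPM) of RAX2, RXRG, OTX2, GNB3, KCNMB4, RGR, PADI1 and AKAIN1 in the cone nuclei of each retina, 1 point per retina, AAV-injected in red and vehicle-injected in blue. RAX2 is at 469 and 423 CPM in the AAV week 4 retinas and at 185 to 295 CPM in the other 6; RGR is at 1.69 and 1.72 CPM against 17.8 to 31.2 CPM.

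In the other photoreceptor lists few genes passed. None of 18 outer segment and cilium genes passed (median 0.06), PRPH2, a structural protein of the disc rim, being at 429 and 545 CPM against 383 and 394 CPM. Of 23 genes of the cone synapse 1 rose and 1 fell (median 0.05). LRIT1, a synaptic leucine-rich repeat protein, rose 0.71 ± 0.13 (edgeR adjusted p = 0.0471), and SYN2 fell by 0.78 ± 0.11 (edgeR adjusted p = 0.0154) and lay at 42.7 and 36.5 CPM in the AAV week 2 eyes against 145 and 137 CPM in the vehicle eyes. The calls of LRIT1 and SYN2 were lost without either vehicle retina, that is, when each was left out in turn. That of LRIT1 was also lost after thinning to 1000 UMIs (edgeR adjusted p = 0.169), under the stricter rule (edgeR adjusted p = 0.112) and in other settings. Of 17 retinoid and energy genes, RDH8, a retinol dehydrogenase of the outer segment, rose 0.76 ± 0.14 (edgeR adjusted p = 0.0413), a call also lost without either vehicle retina. RDH8 did not pass under the stricter rule (edgeR adjusted p = 0.0971) and in other settings. Of 15 rod genes measured in the cone nuclei 2 fell (median -0.33). The rule bounds the sum of PDE6A, PDE6B, NR2E3 and CNGA1 from above, and without these 4 genes 2 of 11 fell (median -0.36). PDE6G, the inhibitory subunit of rod phosphodiesterase, stood at 37.4 and 37.5 CPM against 90.4 and 94.8 CPM (-1.24 ± 0.12, edgeR adjusted p = 0.00341), and ESRRB fell by 0.82 ± 0.12 (edgeR adjusted p = 0.0216), which did not pass without either vehicle retina. PDE6G also differed by -0.95 in the rod nuclei.

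Interferon-stimulated genes made up 35 of the 182 increases. Of 51 tested genes in 3 lists, 35 were higher and none was lower at week 4 (edgeR), where 1.15% of all genes were higher. Their median log2 fold change was 3.41, or 3.24 when genes without a vehicle count are set to their lower bound, against 0.01 over all genes. At week 2, 50 of the 51 were higher in both AAV-injected eyes than in both vehicle eyes, which held for 34.6% of all 15774 genes, while 21.7% of all genes and none of the 51 were lower in both. The count of higher genes was 23 without vehicle replicate 1 and 26 without replicate 2, 24 of 40 tested after thinning to 1000 UMIs per nucleus, and 27 of 41 under a stricter rule against doublets and free RNA, with none lower in any of them.

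The promoters of part of this group held a recurrent motif. The interferon-stimulated response element, where IRF9 with its STAT partners and other IRFs are known to bind, has a core of 2 GAAA repeats. The letters GAAA-NN-GAAA without a gap, N being any base, on either strand and with overlaps allowed, were searched in the 200 bases before the annotated start of each gene (RefSeq, Sscrofa11.1). They were found for 14 of 31 called genes of the 3 lists with a window (45.2%), for 1 of 95 other called higher genes (1.05%, ISG12(A)), for none of 87 lower genes and for 187 of all 10610 tested genes (1.76%). A match is a description of letters and not a measured binding site. Windows of 4 genes that are described next are shown, each 5′ to 3′ on the strand of its gene, with the matches in capitals: IFIH1 (chr15:68985146-68985345, minus strand), IFI6 (chr6:84858073-84858272, minus strand), ISG15 (chr6:63363001-63363200, plus strand) and HERC5 (chr8:130591159-130591358, minus strand).
IFIH1: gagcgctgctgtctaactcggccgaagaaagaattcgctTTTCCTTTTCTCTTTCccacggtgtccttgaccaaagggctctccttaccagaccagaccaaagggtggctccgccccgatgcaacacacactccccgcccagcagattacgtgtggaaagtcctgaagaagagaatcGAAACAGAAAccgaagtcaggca
IFI6: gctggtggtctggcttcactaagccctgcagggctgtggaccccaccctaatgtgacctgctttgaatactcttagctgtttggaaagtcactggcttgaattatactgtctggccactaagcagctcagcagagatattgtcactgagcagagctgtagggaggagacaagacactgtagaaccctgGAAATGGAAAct
ISG15: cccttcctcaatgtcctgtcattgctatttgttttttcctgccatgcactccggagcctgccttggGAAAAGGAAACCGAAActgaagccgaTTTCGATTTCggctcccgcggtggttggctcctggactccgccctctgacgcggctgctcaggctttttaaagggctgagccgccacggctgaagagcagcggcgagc
HERC5: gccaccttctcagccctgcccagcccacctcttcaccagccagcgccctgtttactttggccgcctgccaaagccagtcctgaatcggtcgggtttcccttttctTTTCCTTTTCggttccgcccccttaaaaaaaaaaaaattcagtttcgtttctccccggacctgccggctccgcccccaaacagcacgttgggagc

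In these windows the IFI6 match lies 12 bases before the annotated start, the IFIH1 window holds 3 matches of which 2 overlap, and ISG15 holds matches on both strands. The 4 genes are spread over chromosomes 15, 6 and 8.

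Among the sensors of foreign nucleic acid 8 of 11 tested genes rose. IFIH1, the sensor of long double-stranded RNA, stood at 20.1 and 19.8 CPM in the AAV week 2 eyes, 0.616 and 0.772 CPM in vehicle week 2, 15.4 and 22.7 CPM in AAV week 4 and 0.465 and 1.09 CPM in vehicle week 4. Every AAV-injected retina lay above every vehicle retina, with a log2 fold change of 4.64 ± 0.42 at week 4 (edgeR adjusted p = 0.00256). EIF2AK2, the kinase PKR that stops translation, stood at 180 and 173, 35.9 and 35.9, 147 and 174, and 40.9 and 36.5 CPM in the same order, so it had a level in vehicle retinas from which it rose 2.12 ± 0.16. DDX60, a helicase linked to RNA sensing, stood at 31.4 and 41.3 CPM and at 14.8 and 11.6 CPM in the AAV-injected eyes of week 2 and week 4 and had 2 counts in the vehicle week 4 retinas, a ratio of 118 (95% counting interval 32.2 to 981).

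RIGI, the sensor of short RNA with a 5′ triphosphate, rose 2.28 ± 0.37 (edgeR adjusted p = 0.029), a call lost without vehicle replicate 1 (edgeR adjusted p = 0.11), with a higher minimum of UMIs (0.0512) and after thinning (0.0698). DHX58 rose 3.61 ± 0.34, and OAS2, which makes the activator of RNase L, rose 1.68 ± 0.18. The sensors of DNA or of Z-form nucleic acid were low. ZBP1 was at 3.99 and 3.43 CPM and had 2 counts in the vehicle week 4 retinas, a ratio of 33.1 (95% counting interval 8.76 to 280). CGAS was at 3.87 and 1.57 CPM and had 3 counts, a ratio of 16.7 (5.33 to 83.9). ZBP1 and CGAS lost their calls without either vehicle retina, with edgeR adjusted p of 0.058 and 0.0694 for ZBP1 and 0.158 and 0.262 for CGAS. ADAR, which edits double-stranded RNA, did not pass, with 58.5 and 62 CPM against 37.9 and 41.1 CPM (0.68 ± 0.13, edgeR adjusted p = 0.0555).

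Of 33 antiviral effectors 22 rose. MX2, a dynamin-like GTPase that blocks incoming viruses (chromosome 13, 204798633 to 204821612 in Sscrofa11.1), stood at 42.3 and 44.8 CPM in the AAV week 2 eyes and 28.5 and 26.9 CPM at week 4, and at 0.103 to 0.221 CPM in the 4 vehicle retinas. The 3 vehicle counts at week 4 gave MX2 a ratio of 164 (95% counting interval 55.8 to 800, edgeR adjusted p = 0.000304). MX1 stood at 76.9 and 88.2 CPM and at 34.6 and 42.9 CPM in the AAV-injected eyes of week 2 and week 4, and at 1.33 to 2.32 CPM in the vehicle eyes (4.24 ± 0.25). IFI6, a small membrane protein that blocks flaviviruses, stood at 123 and 88.8 CPM and at 86.7 and 136 CPM, against 0.662 to 1.31 CPM (6.84 ± 0.38). IFI44 and IFI44L rose 6.60 ± 0.53 and 5.58 ± 0.36, EPSTI1 5.01 ± 0.27 and the ADP-ribosyltransferase PARP12 4.29 ± 0.27. RSAD2, viperin, had no count in the vehicle week 4 retinas and stood at 4.23 and 9.72 CPM in the AAV-injected retinas, at least 39.9-fold higher, and BST2, tetherin, was at least 20.5-fold higher. RSAD2 lost its call without vehicle replicate 1.

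Some effectors did not pass. GBP2, a guanylate-binding protein, stood at 30.4 and 25.2 CPM against 22.5 and 24.5 CPM (0.30 ± 0.15, edgeR adjusted p = 0.38), and GBP5 at 1.94 and 3.29 CPM against 2.91 and 3.5 CPM, while their relative GBP1 rose 2.88 ± 0.27. IFIT1 stood at 5.08 and 8.86 CPM against 0 and 0.876 CPM and missed the threshold (edgeR adjusted p = 0.0518), whereas IFIT3 passed with 2.30 and 3.29 CPM against 3 vehicle counts (ratio 16.3, 95% counting interval 5.2 to 82.1) but not without either vehicle retina.

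In the ISG15 system, a ubiquitin-like tag that is joined to proteins by HERC5 and removed by USP18, 5 of 7 genes rose. ISG15 stood at 34.9 and 52.9 CPM in the AAV week 2 eyes, 0.821 and 0.331 CPM in vehicle week 2, 11.9 and 17 CPM in AAV week 4 and 0.697 and 0.985 CPM in vehicle week 4 (4.14 ± 0.38, edgeR adjusted p = 0.00263). HERC5 stood at 43.8 and 71.1, 0.718 and 0.662, 22.6 and 22.9, and 0.814 and 0.985 CPM (4.70 ± 0.26). Both AAV week 2 eyes lay above both AAV week 4 retinas for these genes, but the test of the difference between weeks did not pass (edgeR adjusted p = 0.307 for ISG15 and 0.277 for HERC5). USP18 rose 3.41 ± 0.44, HERC6 4.26 ± 0.42, and UBA7, the activating enzyme, had no count in the vehicle week 4 retinas and was at least 14.7-fold higher. The call of UBA7 was lost without vehicle replicate 1 or 2 (edgeR adjusted p = 0.102 and 0.136) and that of USP18 without vehicle replicate 2 (0.0588).

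Among 17 genes of interferon signalling 5 rose. IRF9, which joins STAT proteins on DNA, stood at 21.5 and 20.6, 1.95 and 3.86, 26.1 and 29.4, and 3.25 and 4.27 CPM in AAV week 2, vehicle week 2, AAV week 4 and vehicle week 4 (2.95 ± 0.22, edgeR adjusted p = 0.00121). Every AAV-injected retina lay above every vehicle retina. IRF7 rose 3.08 ± 0.39 and IRF1 3.12 ± 0.48, and the receptor chain IFNAR2 rose 1.27 ± 0.22, with the calls of IRF7, IRF1 and IFNAR2 lost without either vehicle retina. IFNAR2 also lost its call under the stricter rule (edgeR adjusted p = 0.0742), after thinning (edgeR adjusted p = 0.0656) and in other settings. STAT2 stood at 116 and 93.8 CPM against 85 and 97 CPM (0.27 ± 0.13, edgeR adjusted p = 0.337). No UMI of interferon beta (IFNB1) was counted in the cone nuclei of any retina. Of 14 genes of MHC class I presentation 6 rose. B2M, the light chain of MHC class I, stood at 15.1 and 13.9 CPM and at 25.3 and 30.7 CPM in the AAV-injected eyes of week 2 and week 4 and at 0.221 to 0.930 CPM in the vehicle eyes (5.41 ± 0.34), and the peptide transporter TAP1 and the regulator NLRC5 rose 3.18 ± 0.31 and 3.19 ± 0.28.

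**Figure D4:**
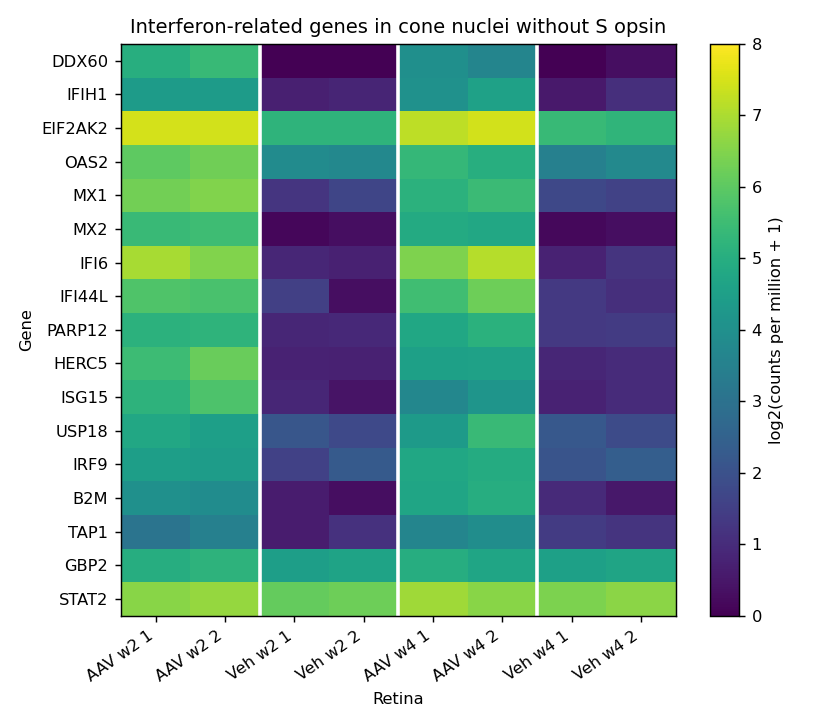
Level of 17 genes of interferon response and MHC class I presentation in the cone nuclei of each of the 8 retinas, as log2 of CPM plus 1. Brighter color is a higher level. The 4 AAV-injected columns are brighter than the 4 vehicle columns in most rows, with MX2 at 26.9 to 44.8 CPM against 0.103 to 0.221 CPM, and GBP2 and STAT2 differ little.

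With every nucleus thinned to 1000 UMIs, the mean number of UMIs of the 3 lists per cone nucleus was 1.62 and 1.77 in the AAV week 2 eyes, 0.604 and 0.611 in vehicle week 2, 1.31 and 1.67 in AAV week 4 and 0.665 and 0.658 in vehicle week 4. None of these UMIs was found in 33.7% and 31.4%, 56.1% and 55.3%, 35% and 27.9%, and 52.9% and 53.5% of the cone nuclei in the same order. Without thinning the means were 5.13 and 7.25, 1.83 and 1.72, 4.2 and 6.17, and 1.79 and 1.6. At the thinned depth an IFI6 UMI was found in 11.2% and 7.21% of the cone nuclei of the AAV week 2 eyes and in 8.79% and 14% at week 4, and in 0 to 0.096% in the vehicle eyes. The exact binomial 95% intervals were 10.1% to 12.4% and 6.28% to 8.24% in the AAV week 2 eyes. At week 4 they were 7.74% to 9.93% and 12.5% to 15.6% in the AAV-injected eyes. These intervals cover counting error only.

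The cone nuclei held fewer of these UMIs than 3000 rod nuclei per retina thinned to the same depth. Rod nuclei had means of 3.97 and 4.09 in AAV week 2, 1.20 and 1.19 in vehicle week 2, 3.45 and 4.41 in AAV week 4 and 1.21 and 1.17 in vehicle week 4. In every retina the rod mean was above the cone mean, vehicle retinas included.

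**Figure D5:**
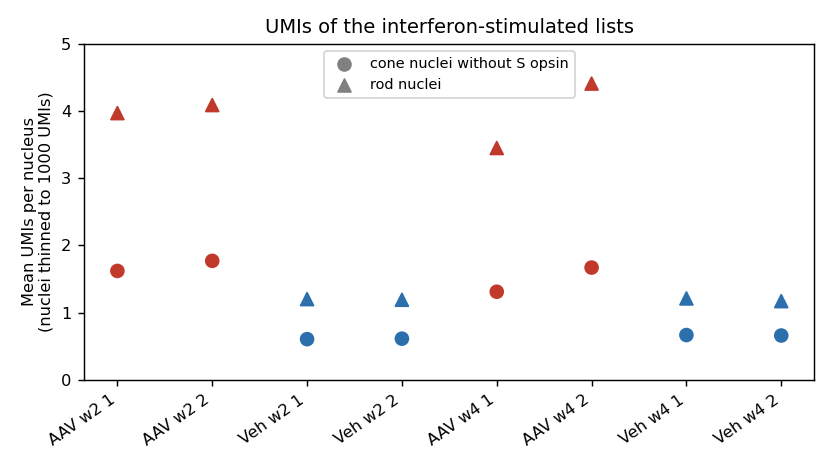
Mean number of UMIs of the 3 interferon-stimulated lists per nucleus after thinning each nucleus to 1000 UMIs, 1 circle (cone nuclei) and 1 triangle (rod nuclei) per retina. Cone nuclei are at 1.31 to 1.77 in AAV-injected and 0.604 to 0.665 in vehicle-injected retinas, and rod nuclei at 3.45 to 4.41 and 1.17 to 1.21.

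Whether AAV acted differently on cone and rod nuclei was tested by the term for class and treatment over all 6 animals. Of 20761 genes 6 passed (0.0289%). The response of NXPH2, a synaptic ligand of neurexins, differed by -2.16 ± 0.19 on the log2 scale, cone minus rod (edgeR adjusted p = 0.027). Among the interferon-stimulated genes PML differed by -1.12 ± 0.12, OAS2 by -1.00 ± 0.10 and ADAR by -0.81 ± 0.09, and outside them SH3RF3 differed by -1.04 ± 0.12 and DAB1 by 1.35 ± 0.15. OAS2 went from 11.5 to 35.3 CPM in the cone nuclei (means of vehicle and AAV week 4), and stood at 88.1 and 77.2 CPM against 12.8 and 14.9 CPM in the rod nuclei. Of the 51 interferon-stimulated genes, 41 had a lower log2 fold change in the cone than in the rod nuclei, with a median difference of -0.69, while over all genes 9215 of 15774 were lower, with a median of -0.04. In the week 4 animals alone 193 of 19157 genes (1.01%) had a higher and 380 (1.98%) a lower log2 fold change in the cone than in the rod nuclei, and of the 51 genes 10 were lower and none higher (edgeR). MX2 differed from the rods by 0.03 ± 0.31 and IFI6 by -0.19 ± 0.19.

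The rods themselves had 1278 higher (5.78%) and 1291 lower genes (5.84%) of 22122 at week 4. Of the 182 genes higher in the cone nuclei 172 were also called higher in the rods, and of the 121 lower genes 108 were also called lower. A retina gave 8476 to 27067 rod nuclei, so the numbers of calls are not comparable between the classes.

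The response was also set against the S opsin cone nuclei. Of 15113 genes 44 (0.291%) differed in their response, with 709 at an unadjusted p under 0.05. No gene passed in edgeR when nuclei with 1 OPN1SW UMI were added to the S opsin class (652 unadjusted), nor when the CCDC136 profile defined the classes (725 unadjusted), so the 44 rested on the class of 680 nuclei. No gene of the 3 interferon-stimulated lists was among the 44, the difference being -0.03 ± 0.94 for MX1. On simulated counts with the same spread for every gene, this test recovered 11.9% of the genes whose response differed by 1 on the log2 scale. It recovered 49.5% of those that differed by 2, so differences of these sizes could be missed. Of the 44 genes, 15 had a higher and 29 a lower log2 fold change in the cone than in the S opsin cone nuclei. The widest differences among genes with a symbol were 4.57 for VWC2, 3.58 for ABTB2 and 2.74 for KCNIP1 in 1 direction, and -3.15 for TLL1 and -2.43 for CNTN3 in the other. VWC2, ABTB2, KCNIP1, TLL1 and CNTN3 rested on 23 to 43 UMIs each in the S opsin cone nuclei. PTPRM differed by 2.65 and RGS6 by 2.46. Also among the 44, and named after their values were seen, were the rule's own gene ARR3 with 0.44, which is a description because its UMIs selected both classes, the glutamate receptor genes GRIK1 and GRIA4 with -1.27 and -1.22, the receptor kinase ERBB4 with -2.42 and the mitochondrially encoded COX1 and ND1 with -0.71 and -1.42 on the log2 scale, each value being the log2 fold change of the cone nuclei minus that of the S opsin cone nuclei.

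Over both weeks, with the 2 eyes of a week 2 animal added and week as a term, 99 of 16349 genes (0.606%) were higher and 6 (0.0367%) were lower in the 3 AAV-injected than in the 3 vehicle-injected animals, with 1077 at an unadjusted p under 0.05 in edgeR. Of the interferon-stimulated lists 37 were higher, and 86 of the 99 were also called at week 4. MX2, IFI6, HERC5 and MX1 rose 7.65 ± 0.26, 6.93 ± 0.30, 5.43 ± 0.33 and 4.75 ± 0.30 on the log2 scale over both weeks. The 6 lower genes were LUZP2 (-1.42 ± 0.20), ADIRF (-1.29 ± 0.20), the secretogranin gene SCG2 (-1.19 ± 0.18) and the mitochondrially encoded ND2 (-1.18 ± 0.15), ND4 (-1.15 ± 0.15) and ND1 (-1.10 ± 0.13). SCG2 stood at 19.6 and 11.6 CPM in AAV week 2, 29 and 25.9 CPM in vehicle week 2, 13.4 and 9.72 CPM in AAV week 4 and 27.3 and 34.7 CPM in vehicle week 4, with no overlap within a week.

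Beside the interferon genes, inflammation, stress and immune markers contributed a smaller number of increases at week 4. Of 16 genes of NF-kB and cytokine signalling 2 rose (median 0.77). CXCL10, the chemokine IP-10, stood at 6.53 and 9.15 CPM in the AAV week 4 retinas, 0.115 and 0.189 CPM in AAV week 2 and 0 in the 4 vehicle eyes, at least 45.7-fold higher at week 4 (edgeR adjusted p = 0.00494). CCL2, MCP-1, stood at 2.06 and 2.43 CPM and was at least 13.2-fold higher (edgeR adjusted p = 0.0248), a call lost without either vehicle retina. A2M, a protease inhibitor of the acute phase, stood at 63.9 and 80.2 CPM in AAV week 4 and at 2.36 to 6.79 CPM in the other 6 retinas (3.81 ± 0.26, edgeR adjusted p = 0.000792). Of 17 stress genes A2M, CEBPD (3.09 ± 0.42) and TXNIP (2.76 ± 0.44) rose, the latter pair without a call when either vehicle retina was left out.

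Of 18 p53 targets 2 rose (median 0.34). CDKN1A, the cell cycle inhibitor p21, stood at 1.62 and 0.851 CPM in AAV week 2 and 2.30 and 1.43 CPM in AAV week 4, and had a count in only 1 of the 4 vehicle eyes, at least 11.2-fold higher at week 4 (edgeR adjusted p = 0.035). PLK2 stood at 14.2 and 20.7 CPM in AAV week 4 and at 1.99 to 4.82 CPM in the other 6 (2.00 ± 0.28). Both calls were lost without either vehicle retina. MDM2, BAX and GADD45A had log2 fold changes of 0.32 ± 0.16, -0.06 ± 0.24 and -0.01 ± 0.24. Of 18 cell death genes CFLAR, an inhibitor of caspase 8, rose 1.07 ± 0.19 (edgeR adjusted p = 0.0414), a call lost without either vehicle retina. CFLAR also lost it under the stricter rule (edgeR adjusted p = 0.0811), after thinning (edgeR adjusted p = 0.0672) and in other settings. None of 17 genes of AAV entry and trafficking passed (median 0.09), and the AAV receptor gene KIAA0319L stood at 157 and 158 CPM against 154 and 154 CPM (0.10 ± 0.11).

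Genes that mark immune cells were among the increases, beside the sums of their lists given above and beside 757 and 720 lymphocyte nuclei in the AAV week 4 retinas, where the other 6 retinas held 26 to 87. CD163, a macrophage scavenger receptor, stood at 16 and 4.72 CPM in AAV week 4 and at 0 to 0.411 CPM in the other 6 retinas, and lost its call without vehicle replicate 1 (edgeR adjusted p = 0.0569) or replicate 2 (0.0694). CD74, the invariant chain of MHC class II, stood at 20.7 and 17 CPM against 0.814 and 2.08 CPM (3.75 ± 0.35). C1QA and C1QB, which start the classical complement pathway, stood at 3.14 and 1.43 CPM and at 2.66 and 2.43 CPM in AAV week 4, with 3 and 2 counts in the vehicle retinas and no call without either of these. Of 10 complement genes these were the ones that passed, and C3 stood at 4.96 and 2.57 CPM against 1.98 and 2.41 CPM. C1QA also lost its call in the alternative test (DESeq2 adjusted p = 0.0822) and in other settings. IGHM, the heavy chain of IgM, stood at 11.5 and 24.7 CPM against 0 and 0.328 CPM and the T cell gene CD2 at 5.20 and 4.15 CPM against 0.232 and 0.109 CPM. The call of CD2 was lost without vehicle replicate 2 (edgeR adjusted p = 0.0526). IGHM and CD2 were also higher in the rod nuclei. Without a symbol, ENSSSCG00000038719 stood at 88.2 and 52.2 CPM against 0 and 0.109 CPM and ENSSSCG00000053053 at 8.47 and 21 CPM against 0, with at most 1 count of either in the week 2 retinas.

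The largest decreases at week 4 included genes of other retinal cells. Of 10 tested Müller glia markers 3 fell and none rose (median -1.28), beside the fall of their sum: TF, transferrin, stood at 9.07 and 4.29 CPM against 60.6 and 49.8 CPM (-2.97 ± 0.29, edgeR adjusted p = 0.00311), SFRP2, a Wnt inhibitor, at 34.8 and 21.3 CPM against 141 and 144 CPM (-2.28 ± 0.19) and RLBP1, which carries retinaldehyde, at 11 and 7.58 CPM against 42.3 and 52.1 CPM (-2.27 ± 0.20). The median of the Müller list was -2.52 without AAV week 4 replicate 1, -0.32 without AAV week 4 replicate 2, -0.57 without vehicle replicate 2 and -0.58 under the stricter rule. That rule allows no UMI of RLBP1, which removes this gene from the list by selection, and 8 genes were tested under it. At week 2 TF, SFRP2 and RLBP1 lay within 42.5 to 44.9, 93 to 123 and 32.4 to 40.3 CPM in all 4 eyes. RGR, a retinaldehyde-binding opsin of Müller glia and pigment epithelium, stood at 1.69 and 1.72 CPM against 28.2 and 31.2 CPM and at 17.8 to 26.5 CPM in all week 2 eyes (-4.05 ± 0.22). RPE65 (-2.20 ± 0.41) and FLT1 (-2.21 ± 0.38) fell in the list of astrocyte, endothelial and pigment epithelium markers, RPE65 without a call when vehicle replicate 2 was left out and FLT1 when either was. Under the stricter rule RPE65 differed by -0.66 (edgeR adjusted p = 0.663) and FLT1 by -1.31 (edgeR adjusted p = 0.356). No bipolar or amacrine marker passed among 9 tested of each, with medians of -0.66 and -1.25. The rule allows at most 1 UMI over TRPM1, GRM6, GAD1, GAD2 and PTPRC in a nucleus. Markers of bipolar and amacrine cells were thus held down by the selection, and the absence of calls is a description.

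Further decreases were in the transporters SLCO1C1 (-3.93 ± 0.50), ABCA6 (-3.44 ± 0.39) and ABCA8 (-2.91 ± 0.29), the bicarbonate transporter SLC4A5 (-2.57 ± 0.43), VSIG10L (-2.74 ± 0.46), the transmembrane protein gene TMEFF2 (-2.86 ± 0.21) and the phosphodiesterase PDE10A. PDE10A stood at 62.9 and 23.4 CPM in AAV week 4, 259 and 472 CPM in vehicle week 4, 239 and 149 CPM in AAV week 2 and 326 and 319 CPM in vehicle week 2 (-3.02 ± 0.42). These genes were also lower in the rod nuclei, by 2.23 to 4.34 on the log2 scale. SLC4A5 lost its call without either vehicle retina and VSIG10L without vehicle replicate 2. Under the stricter rule VSIG10L differed by -1.39 (edgeR adjusted p = 0.306), SLCO1C1 by -2.95 (0.107) and ABCA8 by -2.47 (0.105). ENSSSCG00000015545 and ENSSSCG00000007336, without a symbol, changed by -3.45 ± 0.19 and -2.72 ± 0.28.

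KCNMB4, an accessory subunit of the BK potassium channel, had the largest fall of a gene with a symbol under the naming rule and behaved otherwise. It stood at 30.4 and 39.7 CPM in the AAV week 2 eyes, 1.85 and 1.54 CPM in vehicle week 2, 1.45 and 0.858 CPM in AAV week 4 and 29.1 and 26.2 CPM in vehicle week 4. The 2 eyes or animals of a group were alike, and the order of the treatments turned between the weeks (week 4 log2 fold change -4.48 ± 0.27, edgeR adjusted p = 0.000422). In the rod nuclei it stood at 1.20 to 3.19 CPM in the 4 week 4 retinas and did not pass (-0.84 ± 0.33, edgeR adjusted p = 0.151). The test of the difference between weeks passed for 8 of 17379 genes (0.046%), KCNMB4 among them, and their values are given in the closing section.

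Few of the week 4 decreases were present at week 2. Of the 182 genes higher at week 4, 115 were higher in both AAV week 2 eyes, beside 34.6% of all genes. Of the 121 genes lower at week 4, 17 were lower in both AAV week 2 eyes and 52 were higher in both, beside 21.7% and 34.6% of all genes.

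EGFP is present only in the vector. An EGFP UMI was found in 4.59% and 9.26% of the cone nuclei of the AAV week 2 eyes (exact binomial 95% intervals 3.86% to 5.41% and 8.21% to 10.4%) and in 4.71% and 5.00% at week 4 (3.94% to 5.59% and 4.06% to 6.09%). It was found in 0 of 3204, 3233, 3124 and 3866 cone nuclei of the vehicle eyes, and 0 of 3204 allows a share of up to 0.0936%, taking 3 counts of the total as the limit. At least 2 UMIs were found in 0.374%, 1.44%, 0.528% and 0.319% of the cone nuclei of the 4 AAV-injected eyes. Thinned to 1000 UMIs, the shares were 1.94%, 2.66%, 1.47% and 1.65%. Lymphocyte nuclei of the same eyes, taken as cells that should lack the transgene, had 1.85%, 1.15%, 2.11% and 1.39% at that depth, and 18.5%, 29.9%, 4.89% and 2.92% without thinning at median depths of 9594, 11430, 1948 and 1987 UMIs. The thinned shares of the cone nuclei lay within the exact binomial intervals of the lymphocyte shares in each of the 4 eyes, which rested on 54, 87, 757 and 720 lymphocyte nuclei. These shares are not read as expression in the cone nuclei, and the difference between the classes was not tested. The summed EGFP level of the cone nuclei was 17 and 31.2 CPM at week 2 and 17.3 and 14.4 CPM at week 4, at least 94.5-fold above the vehicle retinas at week 4.

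The EGFP-positive cone nuclei of the 3 AAV-injected animals were compared with the negative ones. Of 14232 genes 10 differed (0.0703%), with 987 at an unadjusted p under 0.05, and each of the 10 was mitochondrially encoded and higher in the positive nuclei. ND3 differed by 1.48 ± 0.20, ND4 by 1.30 ± 0.13, CYTB by 1.29 ± 0.11 (edgeR adjusted p = 0.000796) and COX1 by 0.88 ± 0.12. The positive nuclei were deeper, with medians of 3283, 4372.5, 3690 and 3862.5 UMIs against 2530.5, 3457.5, 2704 and 3322 UMIs. Of 49 interferon-stimulated genes 39 were higher in the positive nuclei with a median of 0.30. Over all genes also tested at week 4, 6699 of 14110 were higher, with a median of -0.02. Müller glia markers leaned the same way (9 of 10 higher, median 0.37), as did amacrine (6 of 6, 0.36) and ganglion cell markers (4 of 4, 1.49). Medians were 0.92 for astrocyte, endothelial and pigment epithelium markers and 0.87 for horizontal cell markers. They were smaller for bipolar (0.22), microglia and macrophage (0.17) and lymphocyte markers (0.14). The lean was thus not particular to the interferon-stimulated genes, and its cause was not tested. None of the 49 passed, IFI6 being at 0.30 ± 0.11 and MX2 at -0.19 ± 0.38.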

How the data were processed

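Nuclei of 8 retinas from 6 animals were counted with 10x 3' chemistry in 4 lanes per retina. The deposited values are raw UMI counts per gene and barcode, which the authors made with Cell Ranger 8.0.0 against Sscrofa11.1 with the EGFP sequence added, keeping barcodes called as cells; their later filtering is not in these matrices. The files hold 35683 genes, 18050 of them without a symbol, and 14544 of 16369 symbols matched RefSeq.

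The rule given in the text selected nuclei, and counts were summed per retina, or per animal where both weeks or both eyes entered. Sums were tested with edgeR 4.0.16 in R 4.3.3 (filterByExpr, TMM, quasi-likelihood F test, Benjamini-Hochberg adjusted p under 0.05), and DESeq2 1.42.0 served as an alternative. Comparisons with rod or S opsin cone nuclei and of EGFP-positive with negative nuclei had animal as a block. Shares were compared with exact permutation tests (SciPy 1.17.1), intervals are exact binomial at 95%, and a gene without a count in a group was given 3 counts over the group as a floor. Nuclei were thinned to 1000 UMIs where depths differed. No doublet caller was run: the marker limits of the rule, and a stricter rule with no UMI of TRPM1, GRM6, GAD1, GAD2, PTPRC, RLBP1 or CX3CR1, a limit on 1 rod gene not reported here and without the deepest nuclei, stood in for it (GLUL is not a symbol of the files and was left out). Promoter windows were cut from the RefSeq genome.

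The members, gene lists and tests were chosen with earlier results of these data known. Named genes were the cone and transcription factor lists by role, up to 6 of each other list, the 10 largest increases and decreases at week 4 with at least 10 CPM and no overlap, up to 2 without a symbol each way, up to 6 each way in the other tests, and EGFP. On simulated counts for 15239 genes the week 4 test recovered 64.4% of genes changed by 1 and 98.9% of genes changed by 2 on the log2 scale, with 1.92% false calls, and the test of the difference between weeks recovered 8.89% and 73.1% (16354 genes). False calls were 6.81% in the simulated test over both weeks (16067 genes) and 5.73% in that of the response against rods (16518 genes), above the 5% aimed at. The simulated counts gave every gene the same spread and held no effect of animal or batch. The rates of recovery and of false calls hold for that setting, and those of the real counts were not measured. Alternatives covered scaling, filters, depth, the rule's thresholds, mitochondrial share and each retina left out. Values of lists without the genes of the rule, or without SAG, were added after the data were seen. Replicate retinas at week 2 are the eyes of 1 animal, and at week 4 are separate animals.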

Additional observations from a re-analysis of the deposited data

Results flagged for a closer look

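For 8 of 17379 genes the AAV effect in the cone nuclei differed between the weeks by the test of the difference itself (edgeR quasi-likelihood test, term for treatment by week, over 6 animals). Each week 2 group is 1 animal, so the spread in this test comes from the week 4 animals, and the cause was not tested. Differences are week 4 minus week 2 effects on the log2 scale, and levels are CPM per retina.

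KCNMB4 differed by -8.80 ± 0.42 (edgeR adjusted p = 0.000391): it stood at 30.4 and 39.7 in AAV week 2, 1.85 and 1.54 in vehicle week 2, 1.45 and 0.858 in AAV week 4 and 29.1 and 26.2 in vehicle week 4. TMEFF2 differed by -3.25 ± 0.31 (edgeR adjusted p = 0.0152), with 37.1 and 25.3, 34.5 and 9.38, 3.63 and 3.43, and 24.3 and 29.7 CPM in the same order. RGR differed by -3.91 ± 0.32 (edgeR adjusted p = 0.00942), with 21.7 and 20.6, 26.5 and 17.8, 1.69 and 1.72, and 28.2 and 31.2 CPM. In these 3 genes the AAV week 4 retinas were below the vehicle retinas of that week, while at week 2 the eyes overlapped for RGR and TMEFF2.

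PADI1, a peptidylarginine deiminase, differed by 4.12 ± 0.30 (edgeR adjusted p = 0.00492), with 10.9 and 5.86, 23.4 and 33.1, 64.1 and 49.2, and 12.4 and 12.2 CPM, so AAV lay below vehicle at week 2 and above it at week 4. AKAIN1, an inhibitor of A-kinase anchoring, differed by 3.89 ± 0.35 (edgeR adjusted p = 0.0126), with 5.2 and 5.86, 48.4 and 36.2, 62.1 and 76.6, and 43.1 and 34.9 CPM, and the low values were those of 1 animal.

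VIPR2, a receptor for vasoactive intestinal peptide, differed by -2.77 ± 0.31 (edgeR adjusted p = 0.0413), with 25.2 and 33.6, 18.9 and 14.8, 6.53 and 6.43, and 24.3 and 30.4 CPM. The mitochondrially encoded COX1 differed by -1.91 ± 0.22 (edgeR adjusted p = 0.0437), with 348 and 503, 236 and 396, 144 and 123, and 359 and 434 CPM, beside the mitochondrial shares given above. ENSSSCG00000015545, without a symbol, differed by -3.14 ± 0.30 (edgeR adjusted p = 0.0152), with 98.4 and 108, 140 and 106, 19 and 12.3, and 162 and 197 CPM.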

How the results depend on the processing

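No called result changed direction under any alternative run. At week 4 (182 higher, 121 lower), DESeq2 called 203 and 208, no filter on low counts 694 and 922 of 27831 genes, RLE factors 170 and 112 and library size alone 131 and 95. Limits on the nuclei gave 126 and 73 (at most 0.5% mitochondrial UMIs), 117 and 87 (a higher minimum of UMIs), 145 and 93 (cone sum of at least 6), 102 and 81 (thinned to 1000 UMIs), 89 and 43 (stricter rule) and, chosen after seeing the data, 129 and 75 without nuclei of the CCDC136 profile. With 1 retina left out the counts ran from 74 to 270 higher and 43 to 542 lower, the lone retina of a group being assumed to vary like the others. Of 88 called genes that were followed, 44 kept their call in every setting in which they were tested. The settings named beside a gene in the text are not always all of those in which its call was lost. Over both weeks (99 and 6), DESeq2 called 154 and 35, and left eyes only at week 2 gave 85 and 3. DESeq2 called 88 genes for the difference between weeks (8). The response against rods (6) rose to 573 in the week 4 animals alone. Against S opsin cone nuclei (1912) thinning gave 752, vehicle animals alone 1094 and, added after seeing the data, 2056 without the CCDC136 profile; the 44 differences in response became 0 with at least 1 OPN1SW UMI and 0 with classes set by the CCDC136 profile, both in edgeR. EGFP-positive nuclei were 5.89% on average, 0.664% at 2 or more UMIs and 1.93% thinned, and the 10 genes became 302 and 17. The week 4 share difference ran from -1.68 to -3.83 points, and was -14.4 points of photoreceptor nuclei. The causes were not tested. No paired analysis was possible because no animal gave a retina to both groups and the labels number only lanes within a retina.

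With 2 animals per group at week 4 and 1 at week 2, p-values measure the spread of 2 animals a group. Depth limits low genes: with 15263323 and 17737396 UMIs in the week 4 groups, genes of a few counts have wide counting intervals, and OPN1SW or EGFP RNA of a nucleus can be missed.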

Other observations

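Among 5048 genes at 30 CPM or more in the cone nuclei, 4 stood at least 4-fold away from all other animals in 1 animal. PIEZO2, a mechanically gated channel, was at 6.05 CPM in AAV week 4 replicate 1 and at 65.3 to 89.6 CPM in the other 7 retinas, 10.7-fold lower than the next animal, and in the rod nuclei of that retina at 5.14 CPM against 11 to 52.8 CPM. SCHIP1 was at 580 CPM in AAV week 4 replicate 2 and at 57.8 to 142 CPM in the others, 4.07-fold higher than the next animal, while the rod nuclei of that retina were at 121 CPM, within the 106 to 202 CPM of the others. SLC1A3, a glial glutamate transporter, was at 6.86 CPM in AAV week 4 replicate 2 and at 34.6 to 52.6 CPM in the others, beside a low Müller marker sum in the same retina (62.3 CPM). AKAIN1 was at 5.2 and 5.86 CPM in the eyes of the AAV week 2 animal, 6.26-fold below the next animal. These genes were chosen after their values were seen, and no test was made.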
